A study of Mus musculus with 9 samples.

Results

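Sowaha, Adamts14, Tbata, Lrig3, Tgfbi, Colec11, Rasa4 and Pcp4l1 are 8 genes picked from an earlier analysis of these arrays because their signal rose in both Smoothened mutant lines against wild-type cerebellum. They are 8 of the 19147 genes measured, and 9 probe sets carry 1 of their symbols, since Tbata has 2 and each of the other 7 genes has 1. Where a gene had several probe sets, the one with the highest mean log2 intensity over all 9 arrays stood for it. The rises over wild type chose the genes, so they are given as a description without a test. The question left to test is whether the rise was of the same size in the 2 mutant lines.

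Total RNA from mouse brain, described in the design text as cerebellum at postnatal day 5 (P5), was measured on 9 Affymetrix arrays in 3 groups of 3. The groups were wild type, SmoA2 mutant and Smo/Smo mutant, all of strain C57BL/6. SmoA2 mice carry a transgene with an activating mutation of Smoothened (Smo) under a fragment of the ND2 (Neurod2) promoter that is active in granule neuron precursors, so other cells of the cerebellum are not its intended site. The labels do not say which transgene the Smo/Smo mice carry, nor how many copies either line has. The design text names SmoA1, built in the same way, as the other line, and Smo/Smo was taken to be that line by elimination. Smo/Smo mice carry sample codes with another prefix than the wild-type and SmoA2 mice, and the labels do not say what the prefix stands for. Whatever goes with the prefix cannot be told apart from the Smo/Smo genotype. Nothing in the labels says how the tissue was pooled or whether each array is a separate litter, and p-values measure only the spread between these samples.

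Smoothened sits in the membrane and relays the signal of Sonic hedgehog (Shh) into the cell. When Shh binds its receptor Patched, Smoothened is released from inhibition and the Gli transcription factors turn on target genes. In the newborn cerebellum the Shh made by Purkinje cells drives granule neuron progenitors of the outer layer to divide, and activated forms of Smoothened can lead to medulloblastoma. The 8 genes are not members of a single pathway. Adamts14 is a secreted metalloprotease of the group that trims procollagens, Tgfbi is a matrix protein induced by TGF-beta, and Colec11 is a secreted collectin of the lectin complement pathway. Lrig3 is a membrane protein with leucine-rich repeats and immunoglobulin domains, from a family that modulates growth factor receptors. Rasa4 is a calcium-responsive GTPase activating protein that switches Ras off, and Pcp4l1 is a small IQ-motif protein related to the calmodulin-binding Purkinje cell protein Pcp4. Sowaha is an ankyrin repeat protein, and Tbata is named for its expression in thymus, brain and testis.

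The stretch of 250 bases before the annotated start was at hand for 7 of the 8 genes, from RefSeq on GRCm38.p6. It is shown for the 3 of them whose rise differed between the mutant lines (Adamts14, Tbata and Lrig3) and for the pair with the most even rise (Rasa4 and Pcp4l1), each read 5′ to 3′ along the gene. Capitals mark matches, on either strand, to the GC box GGGCGG, the CCAAT box or the E-box CATCTG, the only searched motifs found in these 5 stretches.
Adamts14, chr10:61273420-61273669, strand -: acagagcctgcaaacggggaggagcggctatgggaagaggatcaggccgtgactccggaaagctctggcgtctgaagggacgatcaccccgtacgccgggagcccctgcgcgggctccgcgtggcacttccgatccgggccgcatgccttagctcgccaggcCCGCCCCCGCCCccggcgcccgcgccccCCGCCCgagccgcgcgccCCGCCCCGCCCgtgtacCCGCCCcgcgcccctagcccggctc
Tbata, chr10:61171714-61171963, strand +: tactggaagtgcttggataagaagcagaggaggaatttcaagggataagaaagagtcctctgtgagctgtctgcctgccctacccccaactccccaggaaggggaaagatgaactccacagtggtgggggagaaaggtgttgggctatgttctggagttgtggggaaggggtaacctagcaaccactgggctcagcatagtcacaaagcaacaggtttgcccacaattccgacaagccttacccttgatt
Lrig3, chr10:125965969-125966218, strand +: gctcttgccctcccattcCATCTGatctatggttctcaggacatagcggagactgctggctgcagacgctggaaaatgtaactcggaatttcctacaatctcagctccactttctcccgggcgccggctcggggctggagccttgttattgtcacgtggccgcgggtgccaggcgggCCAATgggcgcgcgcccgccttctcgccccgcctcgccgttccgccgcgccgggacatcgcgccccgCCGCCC
Rasa4, chr5:136083666-136083915, strand +: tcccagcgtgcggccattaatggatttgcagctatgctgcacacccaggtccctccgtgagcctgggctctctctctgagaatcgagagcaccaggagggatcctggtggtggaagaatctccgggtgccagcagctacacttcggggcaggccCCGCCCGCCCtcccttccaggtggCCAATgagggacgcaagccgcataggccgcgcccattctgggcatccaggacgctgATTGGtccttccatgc
Pcp4l1, chr1:171196269-171196518, strand -: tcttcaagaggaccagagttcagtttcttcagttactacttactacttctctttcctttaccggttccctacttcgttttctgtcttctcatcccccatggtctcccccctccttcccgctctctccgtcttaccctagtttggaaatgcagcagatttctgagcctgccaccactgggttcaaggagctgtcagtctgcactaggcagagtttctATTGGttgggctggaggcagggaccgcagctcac

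The Adamts14 stretch had 6 GC boxes, 35 CpG pairs and a GC content of 76.4%, against a median of 52.4% over 32851 promoter stretches of the same length. The stretch before Tbata, the gene beside it, had none of the motifs and 1 CpG pair. Lrig3 had a GC box, a CCAAT box and a CATCTG E-box. Rasa4 had 2 GC boxes, which overlap by 2 bases, and 2 CCAAT boxes, and Pcp4l1 had 1 CCAAT box. A GC box was found in 4 of the 7 stretches against 32.7% of all, and a CCAAT box in 3 of 7 against 33.8%. The E-boxes CATCTG and CAGCTG were each found in 1 of 7, against 14.4% of all and 4271 of the 32851. The Gli site GACCACCCA was in none of the 7 and in 0.225% of all stretches, and TATAAA was in none of the 7 and in 12.4% of all. These counts say only whether the letters are in this window.

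The 8 genes fell into those that were higher in SmoA2 than in Smo/Smo and those for which no difference was detected. Sowaha, Adamts14, Tbata and Lrig3 were 1.47-fold to 2.17-fold higher in SmoA2 than in Smo/Smo. Tgfbi, Colec11, Rasa4 and Pcp4l1 were not called, with estimates from 0.937-fold to 1.15-fold. Among all genes 2.56% were called in this comparison, 1.02% as higher in SmoA2 and 1.54% as lower, at an adjusted p under 0.05 in limma. The median difference of the 8 genes was 0.38 on the log2 scale, against -0.003 over all genes. This comparison holds no wild-type array, but the values of both mutant groups entered the choice of the genes, so it is not wholly independent of that choice. All 9 arrays entered a single fit, and p-values were adjusted over the 19147 genes.

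Sowaha had the largest rise of the 8. Its log2 intensity was 8.12, 8.30 and 8.43 in the wild-type replicates, 9.66 to 10.03 in Smo/Smo (10.03, 9.66 and 9.90) and 10.95, 11.03 and 10.97 in SmoA2. The 3 groups did not overlap, and Smo/Smo lay between the others. The rise over wild type was 6.48-fold in SmoA2 (log2 change 2.70 ± 0.11, SE, n = 3 per group) and 2.99-fold in Smo/Smo (1.58 ± 0.11). SmoA2 exceeded Smo/Smo by 1.12 on the log2 scale (95% interval 0.87 to 1.36, adjusted p = 0.001519), rank 25 from the highest of all genes. On the log2 scale the Smo/Smo rise was 58.6% of the SmoA2 rise.

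Adamts14, the procollagen protease, had nearly the same step between the mutants. Its log2 intensity was 7.53, 7.42 and 7.40 in wild type, 8.07, 8.10 and 8.15 in Smo/Smo, and 9.25, 9.05 and 9.23 in SmoA2. Again no groups overlapped. The rise was 3.30-fold in SmoA2 (1.72 ± 0.07) and 1.58-fold in Smo/Smo (0.66 ± 0.07). The difference was 1.07 (95% interval 0.91 to 1.23, adjusted p = 0.0001818), the smallest adjusted p of the 8 genes. Its interval overlaps that of Sowaha, although the rise of Adamts14 in Smo/Smo was a smaller part of its rise in SmoA2, at 38.2%.

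Tbata lies beside Adamts14 on chromosome 10, and the pair is read from opposite strands. Tbata stood at 9.18, 9.16 and 9.06 in wild type, 9.75, 9.84 and 9.71 in Smo/Smo, and 10.32, 10.18 and 10.46 in SmoA2. These groups did not overlap either. The rise was 2.28-fold in SmoA2 (1.19 ± 0.08) and 1.55-fold in Smo/Smo (0.63 ± 0.08). The difference between the mutants was 0.56 (95% interval 0.38 to 0.74, adjusted p = 0.00905). The other Tbata probe set, annotated to another transcript, stood at 8.20 to 8.41 in wild type, 8.74 to 8.98 in Smo/Smo and 9.05 to 9.35 in SmoA2. It gave the same order with a difference of 0.30 ± 0.10 that did not pass the threshold in a fit of all probe sets (adjusted p = 0.1983). In that fit its rise over wild type was 0.87 ± 0.10 in SmoA2 (adjusted p = 0.002705). The rise of 0.57 ± 0.10 in Smo/Smo did not pass the threshold there (adjusted p = 0.06574).

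Lrig3, the leucine-rich repeat membrane protein, was the most even within groups. Its log2 intensity was 9.42, 9.47 and 9.40 in wild type, 9.83, 9.84 and 9.84 in Smo/Smo, and 10.40, 10.37 and 10.48 in SmoA2. The 3 groups were fully apart. The rise was 1.98-fold in SmoA2 (0.99 ± 0.05) and 1.33-fold in Smo/Smo (0.41 ± 0.05), which is the smallest Smo/Smo rise of the 8. The difference was 0.58 (95% interval 0.46 to 0.71, adjusted p = 0.001372), and its interval overlaps that of Tbata.

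**Figure D1:**
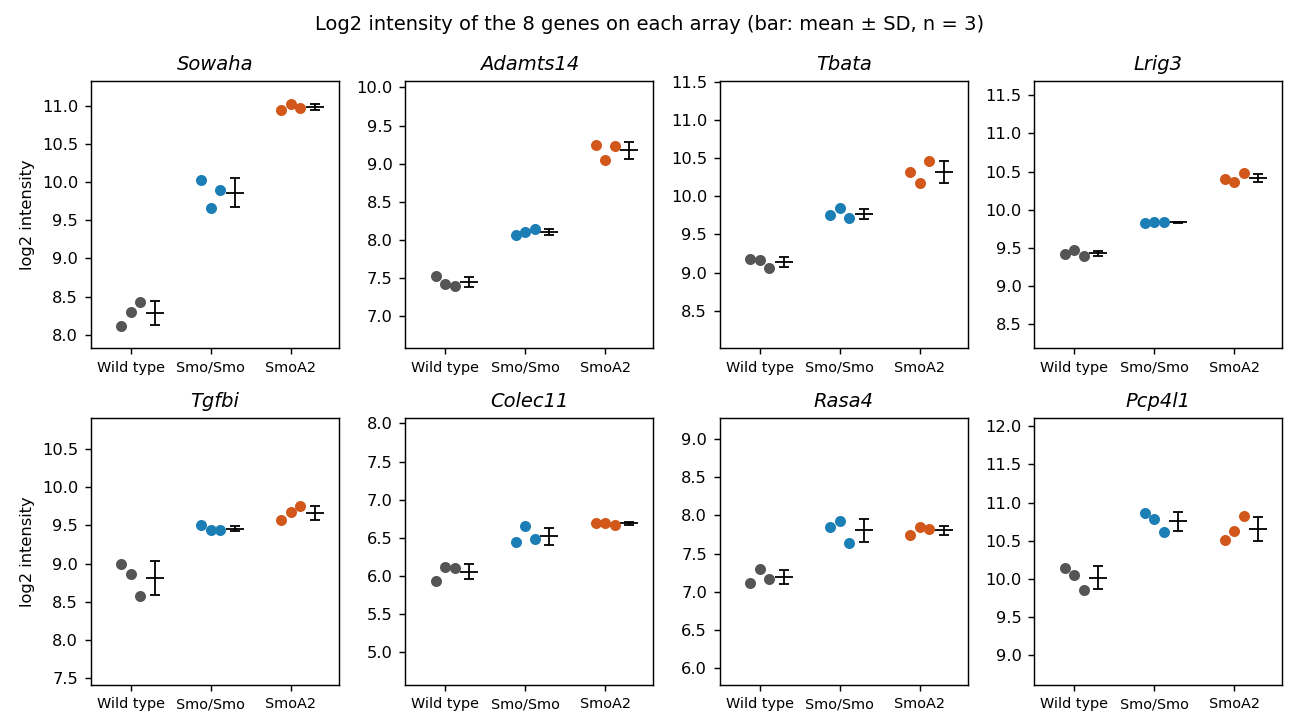
Log2 intensity (vertical axis, the same span of log2 units in every panel) of the 8 genes on each of the 9 arrays, by group, with mean ± SD beside the points. In the upper row SmoA2 lies above Smo/Smo and Smo/Smo above wild type without overlap, while in Rasa4 and Pcp4l1 the mutant groups overlap.

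Tgfbi, the TGF-beta induced matrix protein, was not called between the mutants. It stood at 9.0, 8.87 and 8.57 in wild type, 9.50, 9.44 and 9.44 in Smo/Smo, and 9.57, 9.67 and 9.75 in SmoA2. The SmoA2 arrays lay just above the Smo/Smo arrays, and wild-type replicate 3 was the lowest of all. The rise was 1.81-fold in SmoA2 (0.85 ± 0.10) and 1.57-fold in Smo/Smo (0.65 ± 0.10). The difference of 0.20 had a 95% interval of -0.03 to 0.43 (adjusted p = 0.4271).

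Colec11, the collectin, had the lowest signal of the 8 and stood above the 2.80 to 5.57 that probe sets of Y-linked genes gave in female mice, an indication of the low end of the arrays. Its log2 intensity was 5.94, 6.12 and 6.10 in wild type, 6.44, 6.65 and 6.48 in Smo/Smo, and 6.70, 6.70 and 6.67 in SmoA2. The mutant groups were apart by a narrow gap. The rise was 1.55-fold in SmoA2 (0.63 ± 0.07) and 1.38-fold in Smo/Smo (0.47 ± 0.07). The difference was 0.16, with a 95% interval of -0.0036 to 0.33 (adjusted p = 0.3634).

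Rasa4, the Ras GTPase activating protein, was not called between the mutants, and its rise was the most even of the 8. It stood at 7.12, 7.30 and 7.17 in wild type, 7.85, 7.93 and 7.64 in Smo/Smo, and 7.74, 7.85 and 7.82 in SmoA2. All 6 mutant arrays were above wild type, and the mutant groups overlapped. The rise was 1.52-fold in each (0.60 ± 0.09 in SmoA2 and 0.61 ± 0.09 in Smo/Smo). The 95% interval of the difference ran from -0.20 to 0.19 (adjusted p = 0.9938).

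Pcp4l1, the relative of Pcp4, was the only 1 of the 8 besides Rasa4 with a higher mean in Smo/Smo than in SmoA2. It stood at 10.15, 10.05 and 9.85 in wild type, 10.86, 10.78 and 10.62 in Smo/Smo, and 10.51, 10.63 and 10.83 in SmoA2. The mutant groups overlapped. The rise was 1.56-fold in SmoA2 (0.64 ± 0.11) and 1.67-fold in Smo/Smo (0.74 ± 0.11). The difference was -0.09, with a 95% interval of -0.34 to 0.15 (adjusted p = 0.78).

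**Figure D2:**
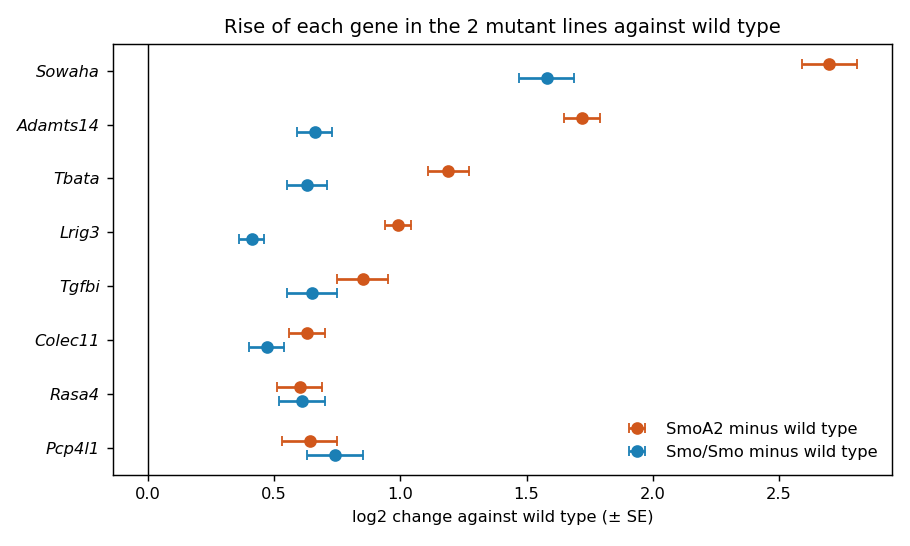
Log2 change against wild type (horizontal axis, ± SE, n = 3 per group) of each of the 8 genes in SmoA2 (orange) and Smo/Smo (blue). SmoA2 values run from 0.60 to 2.70 and Smo/Smo values from 0.41 to 1.58, and the 2 comparisons share their wild-type arrays.

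The SmoA2 arrays lay above all Smo/Smo arrays in 6 of the 8 genes, as they did in 8.12% of all genes. All 6 mutant arrays lay above all 3 wild-type arrays in each of the 8, and in 2.71% of all genes, from which nothing is read since the genes were picked for that rise. The calls of the 4 genes between the mutants held in each of the 21 alternatives, which are other fits or the main fit at a threshold of 0.01. The adjusted p reached 0.01465 for Sowaha, 0.006494 for Adamts14, 0.04414 for Tbata and 0.01254 for Lrig3. For Tbata the alternatives used the main probe set or the mean of both, and its other probe set alone was not called (adjusted p = 0.1983). None of the other 4 genes was called in any of the 21 alternatives. The number of all genes called between the mutants was 490, and it was 247 when SmoA2 replicate 1 was dropped and 219, 170 and 202 when Smo/Smo replicates 1, 2 and 3 were dropped in turn. The intervals of Tgfbi and Colec11 allow SmoA2 to be higher by up to 0.43 and 0.33 on the log2 scale.

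Against wild type all 8 genes passed the threshold in each line, as their choice entails, while 0.961% of all genes were called higher and 1.73% lower in SmoA2 (2.69% in either direction). In Smo/Smo 0.214% were called higher and 0.157% lower (0.371% in either direction). Both calls at once were made for 17 genes, 0.0888% of all. With 1 array left out 2 to 6 of the 8 kept both calls. The number kept was 3, 2 and 3 when wild-type replicates 1, 2 and 3 were dropped in turn, 6, 5 and 6 for the SmoA2 replicates, and 2, 2 and 3 for the Smo/Smo replicates. Sowaha and Adamts14 kept both calls in each of these 9 fits. The call in Smo/Smo held in 4 of the 9 for Rasa4 and in 3 each for Tbata and Lrig3. It held in 2 each for Tgfbi and Pcp4l1 and in none for Colec11. The call in SmoA2 held in 7 of the 9 for Pcp4l1 (adjusted p up to 0.05842) and in all 9 for each of the other genes. With the called sex of the mice as a covariate 3 of the 8 kept both calls, and with only the groups compared in the fit 4 did. By these sex calls wild type had 2 females and 1 male, and each mutant line had 1 female and 2 males.

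The 9 other genes called higher in both lines are Isl1, 2600014E21Rik, Lama5, Grin2c, B230216N24Rik, D630003M21Rik, Thrsp, Lgals12 and Fbln2. Of these, 4 were also higher in SmoA2 than in Smo/Smo, as were 1.02% of all genes, and 5 were not called. The values of both mutant groups entered the choice of these genes too, so this comparison is not wholly independent of it. Isl1, a homeodomain transcription factor of developing neurons, exceeded Smo/Smo by 1.78 (adjusted p = 0.000479), a value that depended on the probe set and was 1.17, still called, with the mean of all its probe sets. Lama5, a laminin chain of basement membranes, exceeded it by 1.09 (adjusted p = 0.001128). The transcripts 2600014E21Rik and B230216N24Rik did so by 1.02 (adjusted p = 0.002651) and 1.09 (adjusted p = 0.000215). Grin2c, an NMDA receptor subunit, stood at -0.08 (adjusted p = 0.7666), and its Smo/Smo rise over wild type of 0.71 became 0.43 and was no longer called with the mean of its probe sets. Thrsp, a regulator of lipid synthesis, stood at 0.12 (0.419) and Fbln2, a matrix protein, at 0.08 (0.5842). D630003M21Rik stood at 0.11 (0.5451) and the galectin Lgals12 at -0.06 (0.8209), and the mean of Lgals12 over all arrays, 3.84, was no higher than Y-linked probe sets reached in female mice. The count of 17 was 5 or 3 when wild-type replicate 1 or 2 was dropped, 11 when SmoA2 replicate 2 was, and 4, 5 and 5 when each of the Smo/Smo replicates 1, 2 and 3 was.

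**Figure D3:**
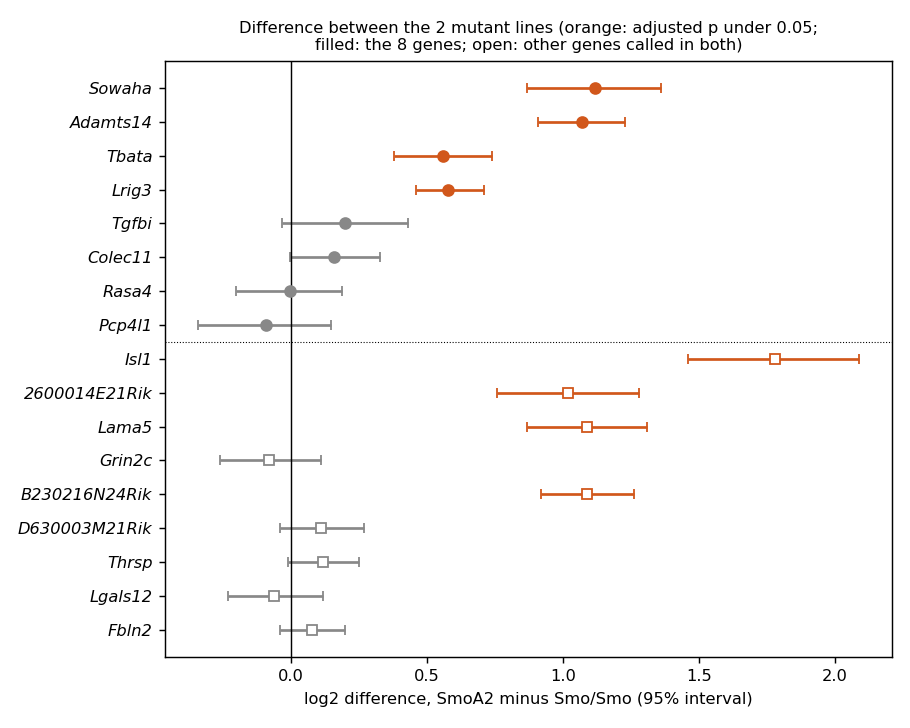
Log2 difference of SmoA2 minus Smo/Smo (horizontal axis, with 95% interval) for the 8 genes (filled circles) and the 9 other genes called higher in both lines (open squares). Orange marks an adjusted p under 0.05, reached by Sowaha, Adamts14, Tbata and Lrig3 and by Isl1, 2600014E21Rik, Lama5 and B230216N24Rik.

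The genes beside the 8 were looked at because Adamts14 and Tbata are next to each other. In the gene order of GRCm38.p6, the 3 measured genes on either side of each of the 8 gave 42 other genes. Of these, 2 were called higher in SmoA2 than in wild type and none lower, 1 was called higher in SmoA2 than in Smo/Smo, and none was called between Smo/Smo and wild type. Over all genes the shares were 0.961%, 1.02% and 0.371%, and counts this small do not show that the neighbours differ from other genes. Both called genes follow Sowaha on chromosome 11. Septin8, a cytoskeletal GTPase, rose by 0.60 ± 0.06 in SmoA2 (adjusted p = 0.0008136), stood at 0.20 ± 0.06 in Smo/Smo (adjusted p = 0.2603) and exceeded Smo/Smo by 0.40 (adjusted p = 0.007739). Gm19835, between Sowaha and Septin8, rose by 1.08 ± 0.19 in SmoA2 (adjusted p = 0.02), a call lost without wild-type replicates 1, 2 or 3 or SmoA2 replicates 1 or 3 (adjusted p up to 0.08641). Its mean of 4.36 is no higher than Y-linked probe sets reached in female mice. On the other side of Sowaha, Gdf9 stood at 0.07 and Uqcrq at 0.20 in SmoA2, and neither was called. Beside Adamts14 and Tbata, the measured genes Sgpl1 (0.14 in SmoA2 and 0.06 in Smo/Smo) and Pald1 (-0.04 and 0.03) were not called.

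**Figure D4:**
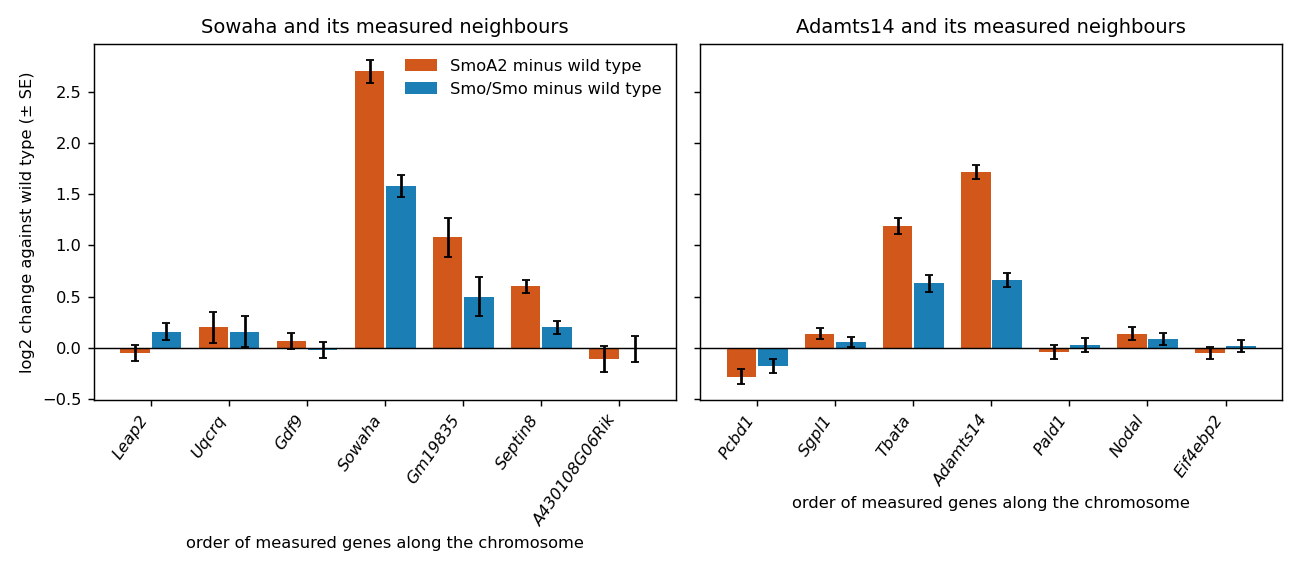
Log2 change against wild type (vertical axis, ± SE) of Sowaha (left) and Adamts14 (right) with the 3 measured genes on either side, in order along the chromosome (horizontal axis), for SmoA2 (orange) and Smo/Smo (blue). Tbata and Adamts14 stand above their other neighbours, and Gm19835 and Septin8 follow Sowaha at 1.08 and 0.60 in SmoA2.

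Among relatives and partners of the 8 genes none was called higher than in wild type in either line. None of the 3 measured relatives of Sowaha (Sowahb, Sowahc and Sowahd) was called in any of the 3 comparisons. In SmoA2, 4 of 11 procollagen processing and fibrillar collagen genes were called lower than in wild type and none higher. The list median was -0.28 against 0.006 over all genes, 1.73% of which were called lower. Meningeal and fibroblast markers, which share Col1a1 and Col1a2 with that list, were also lower in SmoA2 than in wild type in 9 of 13, among them Aldh1a2 (-1.57), Slc22a6 (-1.42) and Slc6a13 (-1.05), and their part in the collagen values was not tested. Adamts3, another procollagen protease of the same family, fell by 0.57 on the log2 scale (adjusted p = 0.004437). Its difference of SmoA2 minus Smo/Smo was -0.62 (adjusted p = 0.003488). Col1a1 and Col1a2, the chains of type I collagen, fell by 0.50 and 0.44 in SmoA2, and the collagen crosslinking enzyme gene Lox by 0.64.

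Among 7 LRIG relatives and growth factor receptors none was called in any comparison, and Lrig1 and Lrig2 stood at -0.02 and 0.15 in SmoA2. None of the 15 measured fasciclin relatives and TGF-beta pathway genes was called either, among them Tgfb1 (-0.10), Tgfb2 (-0.10) and the fasciclin matrix gene Postn (-0.22). Of 9 collectin and lectin complement genes, Masp1, the protease that works with collectins, fell by 0.51 in SmoA2 (adjusted p = 0.006406) and the other 8 were not called against wild type. Masp1 (-0.34, adjusted p = 0.04212) and the ficolin Fcna (-0.84, adjusted p = 0.01614) were lower in SmoA2 than in Smo/Smo. Of 9 Ras and Ras GTPase activating genes, Dab2ip fell by 0.31 in SmoA2 (adjusted p = 0.04258). Of 9 IQ-motif and calmodulin genes, Camk2a fell by 0.74 (adjusted p = 0.01221), and Pcp4 itself stood at -0.23 (adjusted p = 0.06151). None of the genes in these lists was called between Smo/Smo and wild type. Over all genes 1.73% were called lower in SmoA2 than in wild type and 1.54% lower than in Smo/Smo. Counts as small as those in this paragraph do not show that the lists differ from other genes.

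Some Shh target genes differed between the lines as well. Of 14 measured, 9 were called higher and 1 lower in SmoA2 against wild type. None was called in Smo/Smo against wild type, and 6 were called higher in SmoA2 than in Smo/Smo. Over all genes 0.961% were called higher and 1.73% lower in SmoA2, 0.371% were called in Smo/Smo, and 1.02% were higher in SmoA2 than in Smo/Smo. Atoh1, the factor granule neuron progenitors need, exceeded Smo/Smo by 0.70 (adjusted p = 0.001889), the kinase Cdk6 by 0.57 (adjusted p = 0.001859), Gli1 by 0.42 (adjusted p = 0.02047) and the effector Hes1 by 0.48 (adjusted p = 0.004356). The list median of the difference was 0.29. Smo itself stood at -0.17 in SmoA2 (adjusted p = 0.545) and -0.03 in Smo/Smo (adjusted p = 0.9615), and it is not known whether its probe set reads the transgene.

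In bulk tissue fewer cells of a type and less RNA per cell cannot be told apart. Of 7 measured granule neuron progenitor markers the mean log2 intensities lay between 8.54 and 13.2, well above the low end of the arrays. Of these, 1 was called higher in SmoA2 than in wild type and in Smo/Smo (Atoh1), and none was called in Smo/Smo against wild type. The median change of the 7 was 0.08 in SmoA2 and 0.00 in Smo/Smo, and their summed intensity was 23366 to 23983 in wild type, 24524 to 24975 in SmoA2 and 23365 to 24615 in Smo/Smo. The choroid plexus markers varied most between arrays. Their summed intensity over 11 measured markers was 6609, 6320 and 2051 in wild-type replicates 1, 2 and 3, 8790 to 10392 in SmoA2 and 10553 to 12141 in Smo/Smo. Each mutant sum thus lay above each wild-type sum. The median log2 change of the 11 against wild type was 1.43 in SmoA2 and 1.72 in Smo/Smo. None of the 11 was called in any comparison, with an SE of up to 1.41 (Ttr). Without wild-type replicate 3 the rise of Tgfbi was 0.73 in SmoA2 and 0.53 in Smo/Smo, and that of Pcp4l1 0.56 and 0.65. The same values were 2.77 and 1.66 for Sowaha, 1.70 and 0.63 for Adamts14, 1.15 and 0.60 for Tbata, 0.97 and 0.39 for Lrig3, 0.66 and 0.49 for Colec11, and 0.59 and 0.60 for Rasa4. Between SmoA2 and Smo/Smo, 4 of 13 meningeal and fibroblast markers were lower in SmoA2, as were 1.54% of all genes (summed intensity 16865 to 21796 against 24589 to 25582, and 26875 to 27208 in wild type). Of 9 microglia and macrophage markers 3 were higher, as were 1.02% of all genes, and 1 was lower (summed intensity 3438 to 4265 against 2829 to 3158, and 3322 to 3506 in wild type). Lower in SmoA2 were also 3 of 8 endothelial and mural markers (5643 to 5981 against 6879 to 7093, and 6465 to 6568 in wild type). The same held for 2 of 7 markers of Bergmann glia and astrocytes (24967 to 26382 against 28329 to 29737, and 28928 to 29931 in wild type). Of 5 Purkinje cell markers, Pcp2 was lower (12478 to 14320 against 16912 to 17465, and 16395 to 17733 in wild type). The part of these cell types in the differences of the 8 genes was not tested.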

How the data were processed

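Labelled RNA of 9 mouse brain samples was measured on Affymetrix arrays, 3 per group. The deposited values are probe set intensity on a linear scale, summarised by RMA per the submitters' processing notes. Array medians were 91.0 to 95.1. RMA as usually run includes quantile normalization, which sets the arrays to 1 distribution, so a shift common to most genes could not be seen. Of 38385 probe sets, 24478 had 1 symbol in the platform annotation, 65 several and 13842 none, and only those with 1 were used. The log2 of each value was tested in limma 3.58.1 (lmFit and eBayes) in R 4.3.3, in 1 model of the 3 groups, with Benjamini-Hochberg adjustment over 19147 genes and a call at adjusted p under 0.05. The sex of each mouse was read from Xist and Y-linked genes. Gene order came from GRCm38.p6, which placed 19083 genes. The script was tested on simulated data. The 8 genes, the lists, the tests and the alternatives were chosen with earlier results of these data known. The text names these 8 genes, the other genes called in both lines, neighbours, the genes of most similar pattern, and called list members with their closest relatives. The alternatives were another probe set rule, a filter, an offset of 16, other normalizations, a variance trend, array weights, sex, a stricter threshold and arrays left out. Plots used matplotlib 3.10.9 (Python 3.11.15).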

Additional observations from a re-analysis of the deposited data

Results flagged for a closer look

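The rise over wild type differed between the 2 mutant lines, by the fitted difference of SmoA2 minus Smo/Smo, in 8 of the 17 genes called higher in both lines. All 8 were higher in SmoA2, as were 1.02% of all genes. The 17 were chosen by calls that used the values of both mutant groups, so the comparison is not wholly independent of that choice. Among the picked genes the log2 difference was 1.12 for Sowaha, 1.07 for Adamts14, 0.56 for Tbata and 0.58 for Lrig3. Among the others it was 1.78 for Isl1 (1.17 with the mean of its probe sets), 1.02 for 2600014E21Rik, 1.09 for Lama5 and 1.09 for B230216N24Rik.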

How the results depend on the processing

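Over the 21 alternatives, the number of the 8 genes called between SmoA2 and Smo/Smo was 4 in each. The 8 differences kept their side of the threshold, which was 0.01 in 1 alternative. The number of all genes called in that comparison was 490. It was 799 with the filter on low values, 795 with an intensity trend and robust eBayes, 231 with only the groups compared, 142 at an adjusted p under 0.01, 296 without the third wild-type array and the third SmoA2 array together, and 170 to 467 with 1 array left out. The 17 genes called higher in both lines became 28 with the filter, 29 with the trend, 33 with array weights, 9 with only the groups compared, 10 with sex as a covariate, 3 at the stricter threshold, and 3 to 20 with 1 array left out. Some of these alternatives use fewer samples or a stricter threshold, and the cause of the shifts was not tested. No paired analysis was possible because the labels give no replicate number shared between groups. Gm19835 and Lgals12, near the low end of the arrays, could not be fitted after the filter, and 3 arrays a group limit the precision.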

Other observations

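Over the 9 arrays, 11435 genes with a mean log2 intensity of at least 6 were ranked by the likeness of their log2 profile. The 8 genes themselves and symbols that are clone or model numbers were left out of the ranking. Most like the mean standardised profile of the 8 genes were Klhl40 (Pearson r = 0.984), Taf4b (0.971), Thrsp (0.967), Esyt1 (0.965) and Fbln2 (0.964). Klhl40, a kelch protein of muscle, had a log2 change of 0.42 in SmoA2 (adjusted p = 0.00589) and 0.30 in Smo/Smo (adjusted p = 0.09944). Taf4b, a subunit of the transcription factor TFIID, stood at 0.86 (adjusted p = 0.004245) and 0.56 (adjusted p = 0.1012). The ranked genes most like Sowaha were Fam210b (r = 0.968), Nmrk1 (0.968), Isl1 (0.967), Thrsp (0.967) and Cdk6 (0.963). Of the 8 genes, Tbata (0.970) and Lrig3 (0.969) were slightly more like it. Fam210b and Cdk6 were higher in SmoA2 than in Smo/Smo by 0.38 (adjusted p = 0.007729) and 0.57 (adjusted p = 0.001859). The arrays fall into 3 groups, so these values describe shared differences between groups, and genes were ranked by them with no test.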
